A study of Rattus norvegicus with 8 samples.

Results

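The ID proteins and the genes of the BMP pathway around them were examined in peritoneal macrophages of 8 rats, as 10 genes of the 23487 in the deposited table. The genes were the ID family members Id1, Id2 and Id3, the SMADs Smad1, Smad6 and Smad7, the receptors Acvrl1, Bmpr1a and Bmpr2, and the co-receptor Eng. They were chosen by name as a functional family, and the family was selected on the fold changes between CNT-7 and CNT-T, which were known from earlier results of the same counts. The values of these 10 genes are therefore given as a description, without a test of their own. Wistar rats, 8 weeks old, had received an intraperitoneal injection of 2 mg of MWCNT-XNRI-7 (CNT-7), a needle-like and mesotheliomagenic carbon nanotube, or of the tangled, non-mesotheliomagenic CNT-T. Macrophages were sorted by flow cytometry, on CD11b/c and His48, at day 15 from 4 rats per particle and their mRNA was sequenced. Each column of the table is 1 rat, named here by the number in its label (CNT-7 rats 3, 5, 10 and 11, and CNT-T rats 1, 2, 12 and 13). Untreated rats were not analysed here, so each difference is one between both particles. A single dose and a single day were compared, and CNT-T is another particle and not a vehicle.

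BMP signalling begins when a dimeric ligand brings together type I and type II receptor kinases at the cell surface. The type I receptor phosphorylates Smad1, Smad5 or Smad9, which join Smad4 and enter the nucleus, where the ID genes are among the best known direct targets. ID proteins have a helix-loop-helix domain but no DNA-binding region, and they hold E proteins and other transcription factors away from DNA. Smad6 and Smad7 are induced by the pathway and close a negative feedback loop. In macrophages, the ALK1 receptor (Acvrl1) with its ligands BMP9 and BMP10 is known for maintaining liver Kupffer cells, for which Id1 and Id3 are identity factors.

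All 10 genes were found in the RefSeq gene table and 8 of them in the RefSeq promoter table (build GRCr8, another build than the Rnor_6.0 transcripts used for the counts). The promoter windows of the ID genes are shown because all 3 ID transcripts had lower means after CNT-7. Each window holds 250 bases before and 50 bases after the annotated start, on the strand of the gene. They lie at chr3:161671314-161671613 (plus strand) for Id1, chr6:47470946-47471245 (minus strand) for Id2 and chr5:153656041-153656340 (plus strand) for Id3. Capitals mark the letters GTCT, the core of the SMAD-binding element, read on both strands.
Id1: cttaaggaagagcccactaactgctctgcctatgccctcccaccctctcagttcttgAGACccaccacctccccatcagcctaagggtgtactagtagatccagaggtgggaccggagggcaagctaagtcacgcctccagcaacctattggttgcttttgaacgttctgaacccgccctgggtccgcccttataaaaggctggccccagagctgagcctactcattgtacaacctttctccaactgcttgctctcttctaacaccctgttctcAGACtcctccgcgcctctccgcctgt
Id2: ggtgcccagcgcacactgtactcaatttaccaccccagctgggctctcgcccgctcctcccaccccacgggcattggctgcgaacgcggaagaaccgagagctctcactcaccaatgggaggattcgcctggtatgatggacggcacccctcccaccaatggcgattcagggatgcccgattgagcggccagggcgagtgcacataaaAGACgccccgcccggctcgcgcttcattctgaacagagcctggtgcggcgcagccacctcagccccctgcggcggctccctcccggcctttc
Id3: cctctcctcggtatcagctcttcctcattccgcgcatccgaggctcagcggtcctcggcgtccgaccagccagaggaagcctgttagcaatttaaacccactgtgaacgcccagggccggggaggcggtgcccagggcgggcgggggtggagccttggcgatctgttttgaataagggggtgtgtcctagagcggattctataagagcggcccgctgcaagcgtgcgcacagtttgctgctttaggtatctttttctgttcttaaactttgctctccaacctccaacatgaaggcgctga
The Id1 window held 2 such sites, the Id2 window 1 and the Id3 window 0. Of all 33469 promoter windows of this length, 88.8% held at least 1. The longer GC-rich element GGCGCC, read the same way, occurred in 11% of all windows and in none of the ID windows. Among the other members with a window it occurred only in that of Smad7, with 2 sites. Acvrl1 and Smad6 had no window, so they were not examined for either element. A match is a run of letters and not a binding site, and a missing match says only that these letters were not in this window.

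The counts are estimated reads per gene, with totals between 27195157 and 33732981 per rat. Levels are given in CPM, counts scaled to a library of 1000000 after TMM normalization, and are not scaled for transcript length, so levels of different genes are not compared. The smallest level that 3 counts can show lay between 0.0886 and 0.109 CPM, for counting error only. Across genes, Pearson's r of log2 CPM was between 0.971 and 0.986 for rats of the same group and between 0.942 and 0.966 for rats of different groups. None of 9 macrophage markers was at 0 in any rat, and their summed CPM was 15380 to 22510 with CNT-7 and 23870 to 34050 with CNT-T. All 8 rats were rich in macrophage transcripts, with between 1130 and 1690 CPM of Csf1r, the receptor that macrophages need for survival. The part of the lower macrophage marker sum after CNT-7 in the results that follow was not tested. Of the 12124 genes with enough counts to be tested, 27.9% passed an adjusted p-value of 0.10, 13.9% higher and 14.0% lower in CNT-7 (quasi-likelihood test of edgeR, Benjamini-Hochberg adjusted). The groups did not overlap in 24.9% of the genes.

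Of the 10 members, 9 had enough counts. At the same threshold 3 were higher in CNT-7 (Smad7, Acvrl1 and Eng) and 3 lower (Id2, Id3 and Smad1), and the groups did not overlap in 5 of the 9. Their median log2 fold change (log2FC, CNT-7 over CNT-T) was 0.13, against 0.0083 for all genes tested. Because the contrast was used to choose the family, nothing is read from these counts beside the percentages for all genes. For the same reason, whether a single member passed, in any fit given below, is a description and not a test. The means of the ID transcripts were lower after CNT-7, while those of the receptors Acvrl1 and Bmpr2, of the co-receptor Eng and of the inhibitory Smad6 and Smad7 were higher. In these sorted populations, fewer cells with a transcript and less of it per cell cannot be told apart.

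**Figure D1:**
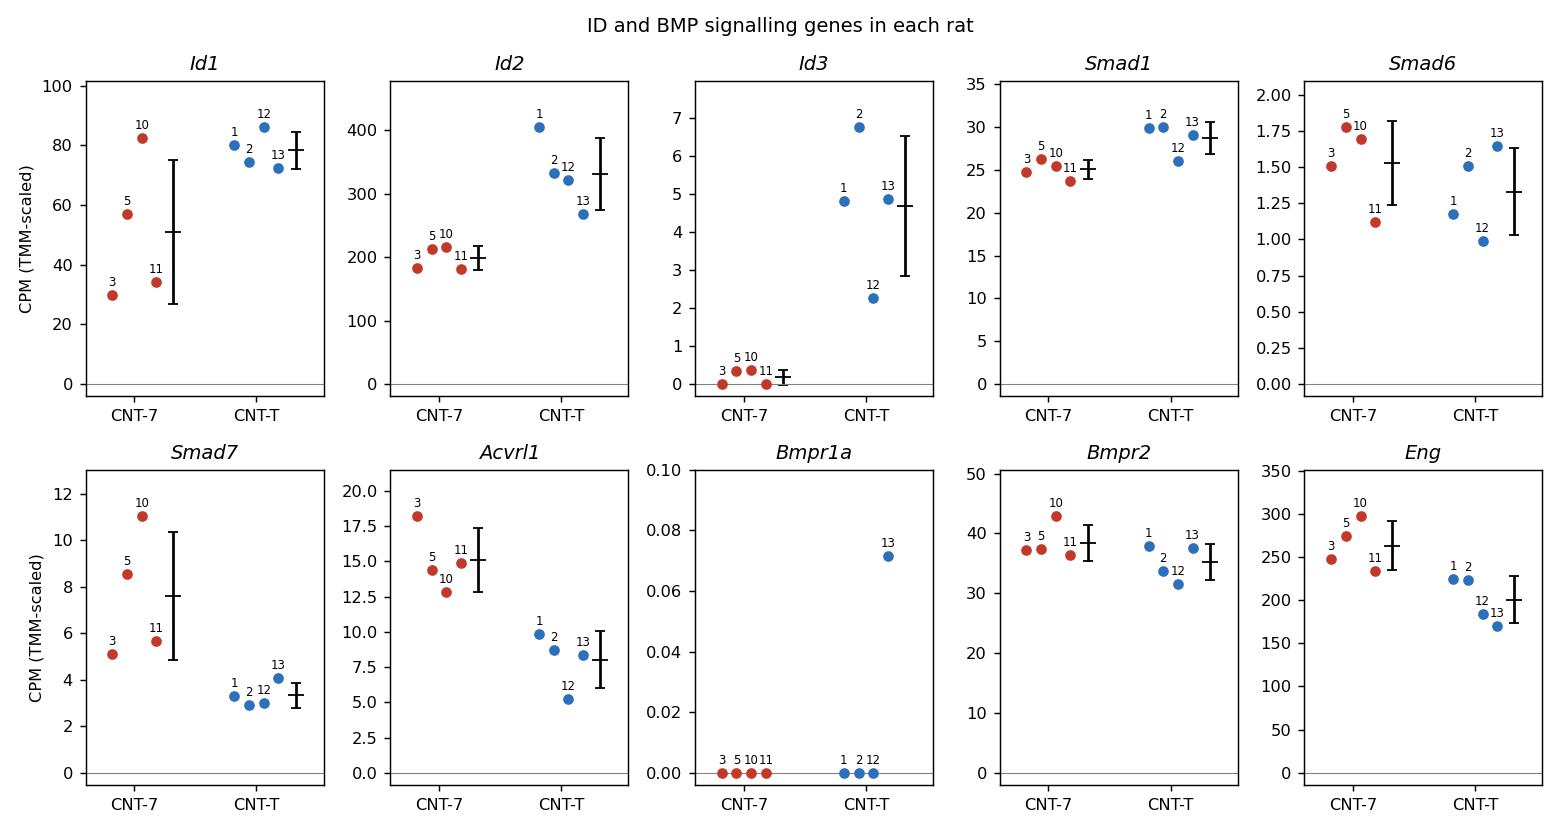
Level of each of the 10 genes in CPM (linear axis, a scale of its own in each panel) in the 4 CNT-7 rats and the 4 CNT-T rats, with rat numbers beside the points and the mean ± SD at the right of each group (not drawn for Bmpr1a, which had 2 counts in all). Id2 and Id3 are lower and Smad7, Acvrl1 and Eng higher in every CNT-7 rat than in any CNT-T rat, whereas Id1, Smad1, Smad6 and Bmpr2 overlap.

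Id3 (ENSRNOG00000026124), a partner of E proteins in lymphocytes and in tissue macrophages, was nearly absent after CNT-7. It had 0 counts in CNT-7 rats 3 and 11 and 10 counts each in CNT-7 rats 5 and 10, that is, 0.33 and 0.36 CPM. In CNT-T rats 1, 2, 12 and 13 it had 148, 229, 69 and 136 counts, or 4.82, 6.77, 2.27 and 4.87 CPM. The lowest CNT-T rat thus lay well above the highest CNT-7 rat, although the gene was of low abundance in both groups. The mean was 0.17 ± 0.20 CPM (SD, n = 4) after CNT-7, compared with 4.68 ± 1.84 CPM (SD, n = 4) for CNT-T, which is 26.9 times as high. The fitted log2FC was -4.72 (standard error, SE, 0.74) and depends on how the 2 rats at 0 counts are treated. A count of 0 allows up to 0.0985 CPM in CNT-7 rat 3 and 0.109 CPM in CNT-7 rat 11.

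Id2 (ENSRNOG00000007237), which also binds the retinoblastoma protein and is required for several lymphoid and dendritic lineages, had 182.5, 212, 216 and 181 CPM in CNT-7 rats 3, 5, 10 and 11. In CNT-T rats 1, 2, 12 and 13 it had 405, 332, 321 and 267.5 CPM. All CNT-7 rats were below all CNT-T rats. The means were 198 ± 18.7 CPM (SD, n = 4) and 331 ± 56.4 CPM (SD, n = 4), and its log2FC was -0.74 (SE 0.12). With each rat left out in turn, it stayed between -0.83 and -0.63.

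Id1 (ENSRNOG00000021750), the ID gene most often used as a readout of BMP receptor activity, had a less uniform pattern. It was at 29.8 and 34.3 CPM in CNT-7 rats 3 and 11, at 57.0 CPM in CNT-7 rat 5 and at 82.4 CPM in CNT-7 rat 10. The CNT-T rats lay close together, with 80.0, 74.6, 86.1 and 72.6 CPM in rats 1, 2, 12 and 13. Of the CNT-7 rats, 3 were below every CNT-T rat and rat 10 was within their range. The mean was 50.9 ± 24.2 CPM (SD, n = 4) after CNT-7, compared with 78.3 ± 6.05 CPM (SD, n = 4) for CNT-T. The log2FC of -0.62 (SE 0.28) did not pass the threshold. Without CNT-7 rat 10 it was -0.95 and passed, and it also passed with DESeq2, at -0.63. Without CNT-7 rat 3 it was -0.44 and did not pass. Id4, the remaining ID gene, had 0 counts in all 8 rats.

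Among the receptors, Acvrl1 (ENSRNOG00000028713), which encodes the type I receptor ALK1, was higher in every CNT-7 rat. It had 18.2, 14.4, 12.8 and 14.9 CPM in CNT-7 rats 3, 5, 10 and 11, and 9.88, 8.72, 5.21 and 8.34 CPM in CNT-T rats 1, 2, 12 and 13. The means were 15.1 ± 2.28 CPM (SD, n = 4) and 8.04 ± 2.00 CPM (SD, n = 4), with a log2FC of 0.91 (SE 0.19). Eng (ENSRNOG00000050190), which encodes endoglin, a co-receptor that binds BMP9 and BMP10 and works with ALK1, was at 247, 274, 297 and 234 CPM in the CNT-7 rats in the same order. In the CNT-T rats it was at 224, 223, 184 and 170.3 CPM. The groups did not overlap, but the gap between the lowest CNT-7 and the highest CNT-T rat was small beside the spread within each group. The means were 263 ± 28.2 CPM (SD, n = 4) and 200.3 ± 27.2 CPM (SD, n = 4), with a log2FC of 0.39 (SE 0.11). Without CNT-T rat 12, the value of Eng was 0.35 and no longer passed the threshold.

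Bmpr2 (ENSRNOG00000022196), the type II receptor kinase, had 36.4 to 42.9 CPM across CNT-7 rats and 31.6 to 37.9 CPM across CNT-T rats. The groups overlapped, and its log2FC was 0.13 (SE 0.087). Bmpr1a (ENSRNOG00000052469), which encodes the type I receptor ALK3, had 0 counts in 7 rats and 2 counts in CNT-T rat 13. It was not tested, and its level was below what 3 counts can show in every rat. Bmpr1b, the closest relative of Bmpr1a, had 0 counts in all 8 rats. Only reads that match the Ensembl transcript sequences of a gene enter its count, and whether this limited the row of Bmpr1a was not tested.

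Smad7 (ENSRNOG00000018359), an inhibitory SMAD of both the BMP and the TGF-beta arm, was higher in every CNT-7 rat. It had 5.12, 8.57, 11.1 and 5.68 CPM in CNT-7 rats 3, 5, 10 and 11, and 3.32, 2.92, 3.0 and 4.08 CPM in CNT-T rats 1, 2, 12 and 13. The means were 7.61 ± 2.75 CPM (SD, n = 4) and 3.33 ± 0.53 CPM (SD, n = 4), with a log2FC of 1.19 (SE 0.25). CNT-7 rats 5 and 10 were the highest, and without rat 10 the value was 0.96. Smad6 (ENSRNOG00000009173), the inhibitory SMAD that acts mainly on the BMP arm, was of low abundance and overlapped. It had 1.12 to 1.77 CPM across CNT-7 rats and 0.99 to 1.65 CPM across CNT-T rats, with a log2FC of 0.20 (SE 0.25). Smad1 (ENSRNOG00000018483), the signal-transducing SMAD, had 24.8, 26.3, 25.5 and 23.7 CPM in the CNT-7 rats and 29.9, 30.0, 26.0 and 29.1 CPM in the CNT-T rats. CNT-7 rat 5 was above CNT-T rat 12, and the log2FC of Smad1 was -0.20 (SE 0.075). Smad1 no longer passed the threshold in 7 of the 8 fits that left out 1 rat.

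**Figure D2:**
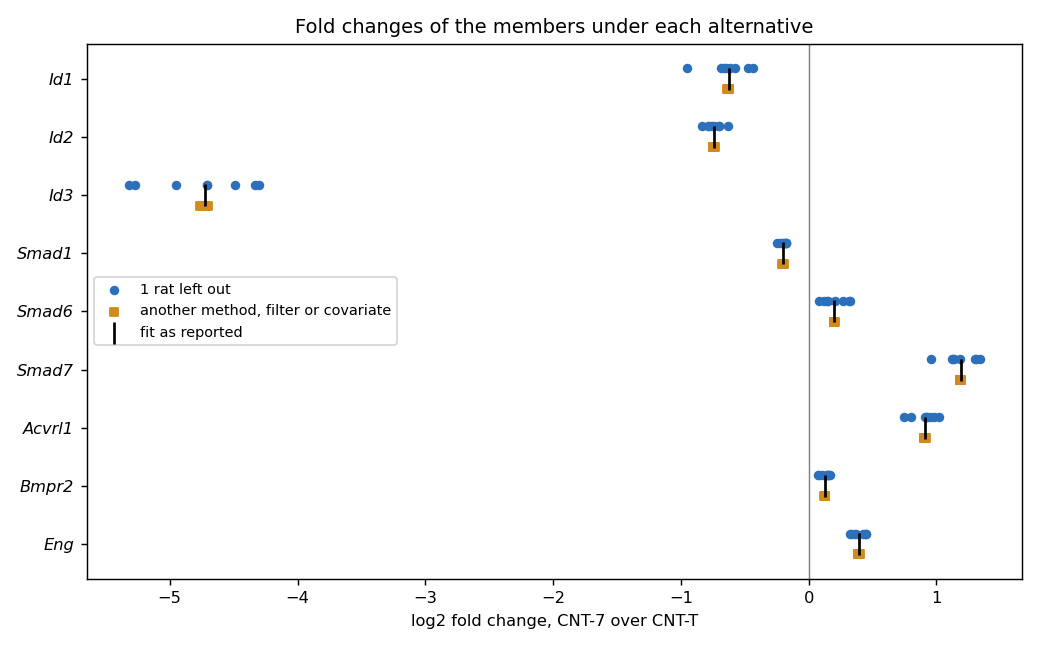
Log2FC, CNT-7 relative to CNT-T (x axis), of the 9 members with enough counts, for the fit as reported (black line), for the fits that left out 1 rat (circles) and for the other alternatives (squares). No value changes its side of 0, the circles of Id1 run from -0.95 to -0.44, and those of Id3 from -5.32 to -4.30.

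Within the CNT-7 group the members had a common order of rats, a pattern noticed after the values were seen. In 8 of the 9 members with enough counts, CNT-7 rats 5 and 10 were the 2 highest rats of their group. Some of these ranks were close. For Bmpr2, CNT-7 rats 5 and 3 had 37.4 and 37.2 CPM, and for Smad6, CNT-7 rats 10 and 3 had 47 and 46 counts. The exception was Acvrl1, for which they were the 2 lowest. The same 2 rats were the highest in 2570 (21.2%) of all 12124 genes and in 19 of the 59 other pathway genes tested. No test was made of this order, which rests on 4 rats. Summed CPM of 9 lymphocyte markers was 9.41 in CNT-7 rat 5 and 4.44 in CNT-7 rat 10, against 2.79 and 2.39 in CNT-7 rats 3 and 11 and from 0.39 to 1.35 across CNT-T rats. The part of lymphocytes in the levels of Id2 and Id3 was not tested.

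**Figure D3:**
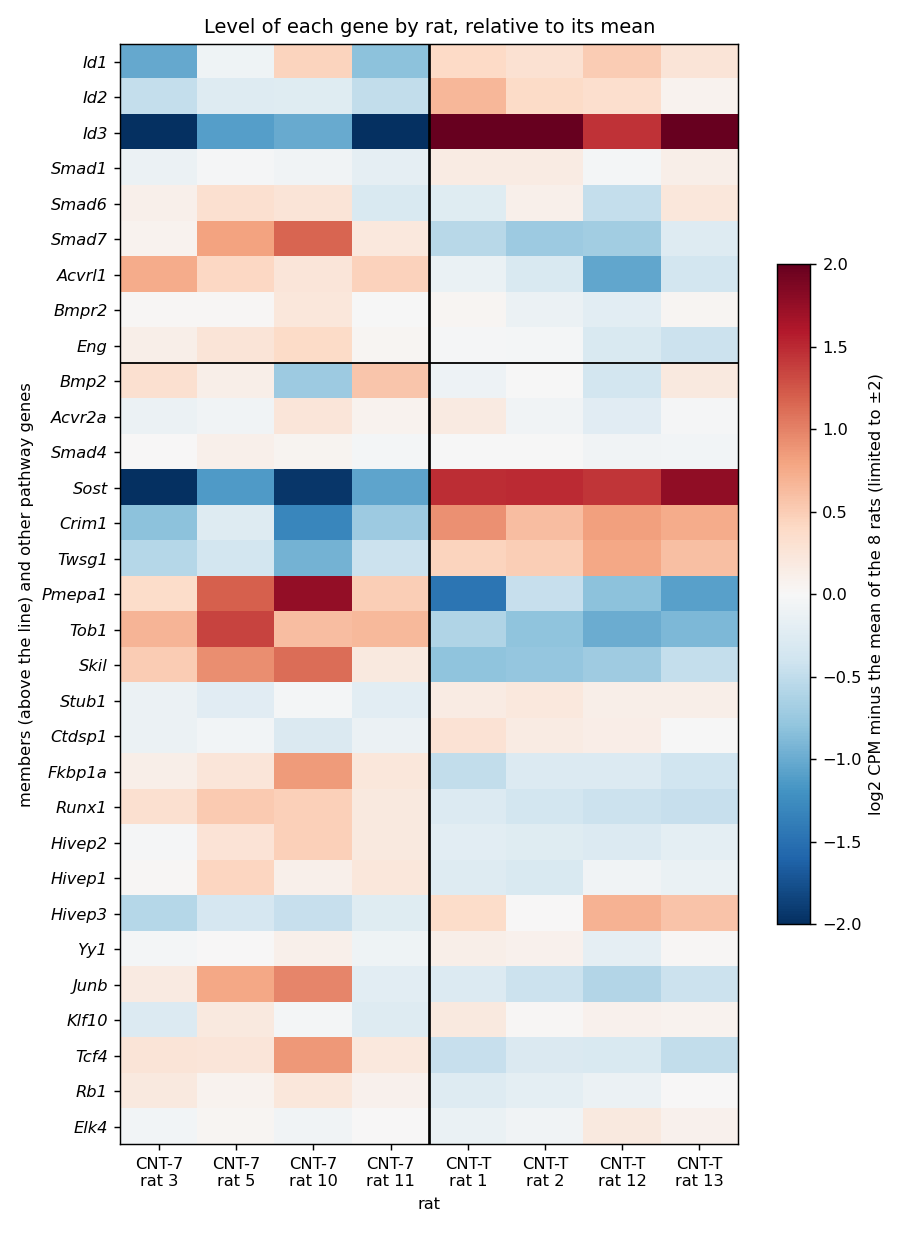
Log2 CPM of each gene minus its mean over the 8 rats (colour, limited to ±2), with 1 column per rat and 1 row per gene, the 9 members above the horizontal line and the other named pathway genes below it. Id1, Id2, Id3 and Smad7 are higher in CNT-7 rats 5 and 10 than in CNT-7 rats 3 and 11, and Pmepa1, Skil and Junb show the same order.

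Because Acvrl1 and Eng are also endothelial genes, markers of endothelial cells were examined. Their summed CPM was 237 to 244 across CNT-7 rats and 213 to 255.5 across CNT-T rats. Of the 12 markers found, Cldn5, Emcn and Robo4 had 0 counts in every rat, and Kdr, Vwf and Egfl7 were at most at 0.36 CPM. The sum came mainly from Tie1, with between 130.1 and 165.8 CPM in all rats, and from Esam, Tek and Flt1. Of the 6 markers tested, 2 were higher in CNT-7, Plvap (log2FC 5.31) and Flt1 (1.5), and 1 was lower, Tek (-1.02). Among all genes, 13.9% were higher and 14.0% lower. Plvap, a protein of endothelial diaphragms, had 83, 51, 25 and 48 counts in CNT-7 rats 3, 5, 10 and 11 and at most 3 in any CNT-T rat, and Kdr had 1 to 10 counts in every CNT-7 rat and 0 in every CNT-T rat. Cdh5 had 1.57 ± 0.69 CPM with CNT-7 and 0.98 ± 0.47 CPM with CNT-T, with overlap. Plvap, Flt1 and Kdr, the last too low to be tested, were thus higher in the same group as Acvrl1 and Eng. Tek was lower in that group, and Tie1 (log2FC 0.10) and Esam (-0.25) overlapped and did not pass the threshold. The part of endothelial cells in the levels of Acvrl1 and Eng was not tested. Mesothelial markers summed to at most 1.24 CPM and fibroblast markers to at most 1.47 CPM in any rat. Dendritic cell markers, relevant for Id2, summed to 17.5 to 26.8 CPM across CNT-7 rats and 10.5 to 18.4 CPM across CNT-T rats, with overlap. Of the 6 tested, 4 were higher in CNT-7 and 0 lower, beside 13.9% higher and 14.0% lower among all genes. They were Ccr7 (log2FC 3.80), Cd24 (3.56), Clec9a (1.76) and Batf3 (0.78), whereas Id2 was lower in CNT-7. Within CNT-T the sums of rats 1, 2, 12 and 13 (18.4, 13.5, 13.3 and 10.5 CPM) were in the same order as their Id2 levels. Within CNT-7 the sums of rats 3, 5, 10 and 11 (26.8, 22.9, 17.5 and 17.7 CPM) were not. CNT-7 rat 10, with the highest Id2 of its group, had the lowest sum. The part of dendritic cells in the level of Id2 was not tested. Neutrophil markers summed to between 33.8 and 62.9 CPM and between 26.2 and 68.4 CPM.

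The remaining genes of the pathway were taken from lists written by function, which hold 93 gene symbols. The lists were chosen with earlier results of these data known, so their counts are not independent of the contrast. Of these, 91 were found, 21 had no count in any rat and 59 were tested. At an adjusted p-value of 0.10, 17 were higher and 9 lower in CNT-7, which is 26 of 59 beside 27.9% of all genes, and the median log2 fold change was 0.10.

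Few ligand genes were detected in these macrophages. Of 14 BMP ligand genes, 8 had no count in any rat, among them Gdf2 and Bmp10, which encode BMP9 and BMP10, the ligands of ALK1. Bmp2 was the most counted, with 10.3 ± 3.42 CPM (SD, n = 4) after CNT-7, compared with 8.99 ± 1.47 CPM (SD, n = 4) for CNT-T (log2FC 0.19, SE 0.24, adjusted p = 0.63 by edgeR). Of the 3 ligand genes tested, 1 passed the threshold, beside 27.9% of all genes. This was Bmp5, lower in CNT-7, with 0.60 ± 0.36 against 1.34 ± 0.22 CPM (log2FC -1.15, adjusted p = 0.087 by edgeR).

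Of the other receptors and co-receptors, 9 of 10 symbols were found and 6 tested, and none passed the threshold with edgeR, beside 27.9% of all genes. The type I receptor gene Acvr1 had 9.45 ± 1.12 CPM (SD, n = 4) after CNT-7, compared with 9.09 ± 0.77 CPM (SD, n = 4) for CNT-T. Acvr2a, a type II receptor, had a log2FC of 0.064 (SE 0.13). The shared Smad4 was at 58.3 ± 2.29 and 55.6 ± 1.48 CPM (log2FC 0.067, SE 0.058, adjusted p = 0.47 from edgeR). Smad5 was at 23.7 ± 1.05 and 24.4 ± 0.96 CPM. Smad9 was not tested.

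Secreted antagonists and modulators of BMP ligands that passed the threshold were lower in CNT-7. Of 16 genes, 6 were tested, and 4 were lower and none higher, beside 14.0% lower and 13.9% higher among all genes, with a median log2FC of -1.34. Sost, which encodes sclerostin, an antagonist of WNT and BMP signalling in bone, had 4, 9, 4 and 9 counts in CNT-7 rats 3, 5, 10 and 11 and 67, 75, 64 and 76 counts in CNT-T rats 1, 2, 12 and 13. This corresponded to 0.23 ± 0.10 and 2.31 ± 0.28 CPM (log2FC -3.33, SE 0.32, adjusted p = 0.00030). Crim1, a transmembrane protein that tethers BMPs, fell from 30.2 ± 2.53 CPM in CNT-T to 10.6 ± 3.16 CPM in CNT-7 (log2FC -1.51, SE 0.19, adjusted p = 0.00085). Twsg1, a BMP-binding protein, fell from 3.44 ± 0.37 to 1.52 ± 0.26 CPM (log2FC -1.18, adjusted p = 0.0028). Nbl1, an antagonist of the DAN family, was also lower (log2FC -0.53, adjusted p = 0.075). Each of these values is from edgeR's quasi-likelihood test, and the groups did not overlap for any of the 4 genes.

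Intracellular regulators of SMADs passed the threshold in both directions. All 16 were tested, and 9 were higher and 2 lower in CNT-7, beside 13.9% higher and 14.0% lower among all genes, with a median log2FC of 0.24. Pmepa1, an inhibitor of receptor-activated SMADs, rose from 2.50 ± 0.73 CPM in CNT-T to 10.1 ± 4.71 CPM in CNT-7 (log2FC 2.00, SE 0.34, adjusted p = 0.0036). Tob1, a repressor of proliferation that binds SMADs, rose from 7.64 ± 0.93 to 24.5 ± 6.62 CPM (log2FC 1.68, SE 0.18, adjusted p = 0.00042). Skil, which encodes the SMAD co-repressor SnoN, rose from 14.8 ± 1.59 to 39.5 ± 10.9 CPM (log2FC 1.41, SE 0.19, adjusted p = 0.0011). Fkbp1a, which encodes a protein that keeps type I receptors inactive, rose from 115.5 ± 8.68 to 194 ± 49.2 CPM (log2FC 0.75, adjusted p = 0.0082 from edgeR). Stub1 and Ctdsp1, a ubiquitin ligase and a SMAD phosphatase, fell slightly, with log2 fold changes of -0.30 and -0.29. Smad7, Skil and Pmepa1 are known as targets of TGF-beta as well as regulators of SMADs. Whether any ligand acted on these cells, and which, was not measured.

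Among nuclear partners of SMADs, 8 of 10 were tested, and 3 were higher and 1 lower in CNT-7, beside 27.9% of all genes in either direction. Runx1, a regulator of blood cell development, rose from 13.1 ± 0.78 to 22.4 ± 2.31 CPM (log2FC 0.77, SE 0.096, adjusted p = 0.00084 from edgeR). Of the 3 Schnurri genes, Hivep2 (log2FC 0.47) and Hivep1 (0.39) were higher, whereas Hivep3 was lower (-0.84). Yy1, the most counted of the list, had a log2FC of -0.020 (SE 0.081).

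Other BMP target genes passed the threshold in both directions. Of 13 genes, 6 had no count in any rat and 7 were tested. In CNT-7, 2 of the 7 were higher and 1 was lower, beside 27.9% of all genes in either direction. Junb, an AP-1 subunit that many stimuli besides BMPs induce, had 116.8 ± 41.5 CPM (SD, n = 4) after CNT-7, compared with 61.3 ± 5.21 CPM (SD, n = 4) for CNT-T (log2FC 0.93, SE 0.22, adjusted p = 0.016 from edgeR). Hamp, which encodes the iron hormone hepcidin, was higher, with 20, 19, 52 and 21 counts in the CNT-7 rats and 8, 3, 4 and 5 counts in the CNT-T rats (log2FC 2.55, adjusted p = 0.0069). Atoh8, a helix-loop-helix factor induced by BMP9 in endothelial cells, was lower, with 1, 4, 5 and 9 counts in the CNT-7 rats and 47, 39, 47 and 38 counts in the CNT-T rats (log2FC -3.04, adjusted p = 0.0019). Hamp and Atoh8 had means under 1 CPM over the 8 rats and were named after their values were seen. Klf10, the most counted target gene, had a log2FC of -0.17 (SE 0.11, adjusted p = 0.30 from edgeR).

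Of the 11 E proteins and other ID-binding partners, all were tested, and 3 were higher and none lower in CNT-7, a share near the 27.9% of all genes that passed in either direction. Tcf4, which encodes the E protein E2-2, rose from 13.5 ± 0.97 to 23.7 ± 5.69 CPM (log2FC 0.81, SE 0.15, adjusted p = 0.0055 from edgeR). The remaining E protein genes, Tcf3 and Tcf12, had log2 fold changes of -0.025 and -0.15 and did not pass the threshold. Rb1, the retinoblastoma protein that Id2 binds, rose slightly, from 48.0 ± 3.83 to 58.4 ± 2.97 CPM (log2FC 0.28, adjusted p = 0.025). Tal1, a helix-loop-helix partner of E proteins, also passed (log2FC 0.94, adjusted p = 0.057), although its groups overlapped.

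**Figure D4:**
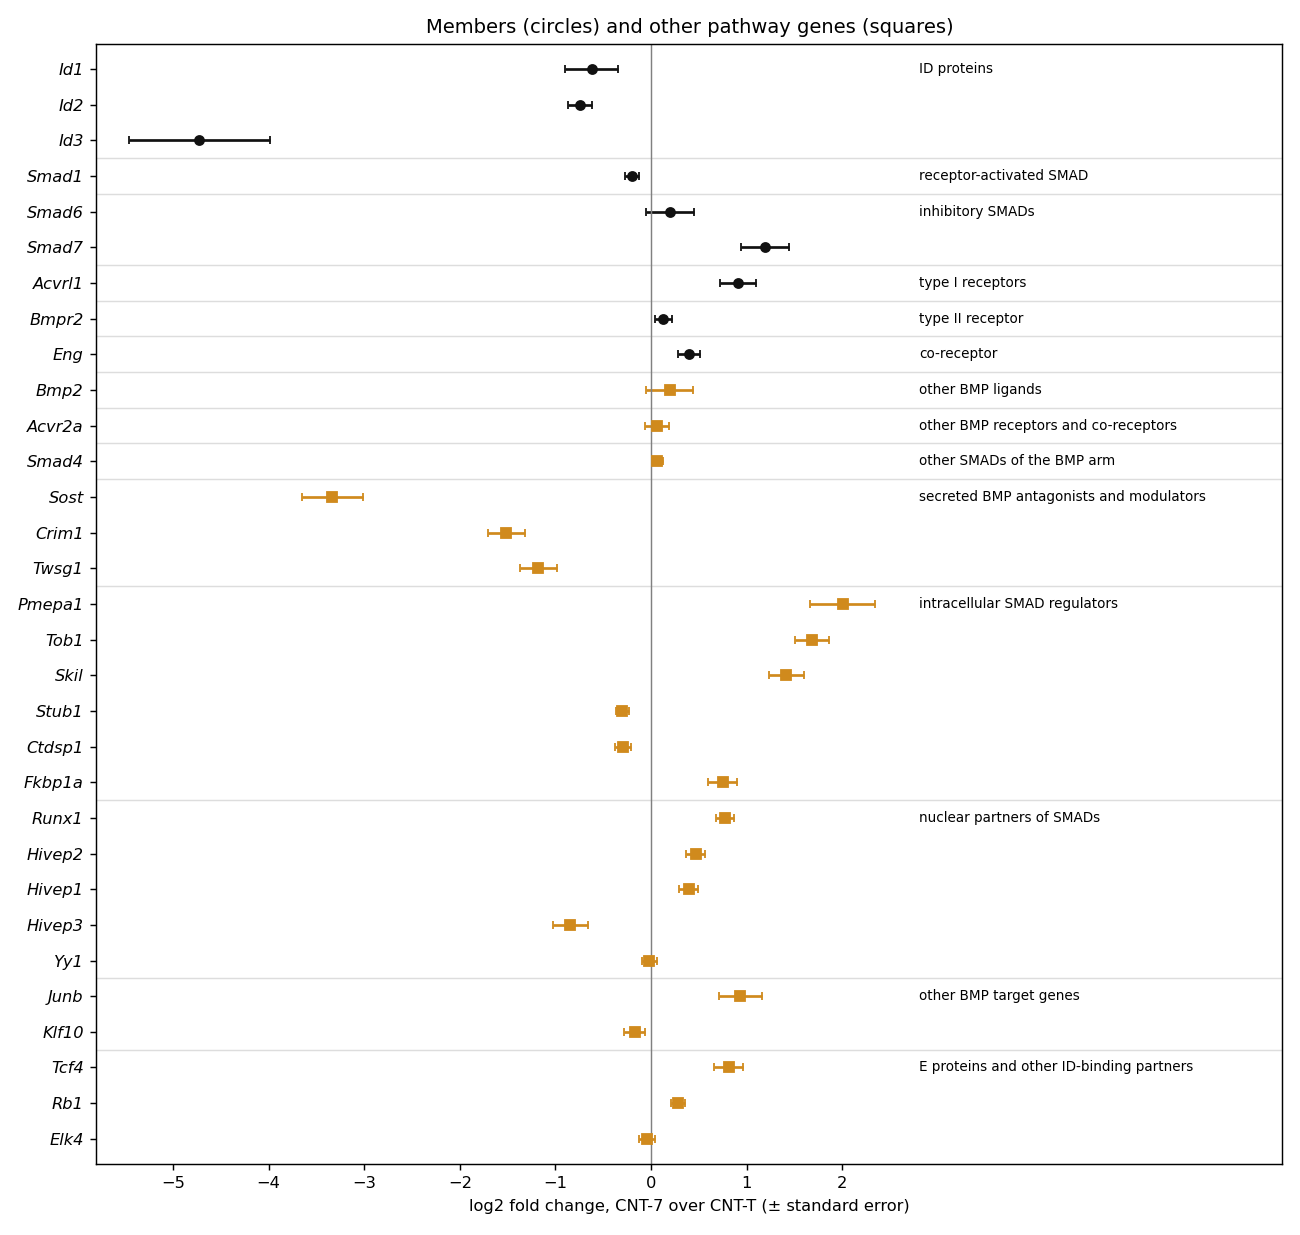
Log2FC, CNT-7 relative to CNT-T (x axis), with its standard error for the 9 members with enough counts (circles) and the named genes of the other pathway lists (squares), grouped by list. Among the genes drawn, which leave out those under 1 CPM on average and the Kupffer cell genes, Id3 and Sost have the lowest values, -4.72 and -3.33, and Pmepa1 the highest, 2.00.

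As Id1 and Id3 are best known in liver macrophages, identity genes of Kupffer cells were examined. Of 12 genes, 11 were found and 8 tested. In CNT-7, 3 of the 8 were lower and none higher, beside 14.0% lower and 13.9% higher among all genes. In either direction, 27.9% of all genes passed. The list is short, and no test of its share was made. Cd5l, a secreted scavenger receptor protein, had 0.46 ± 0.47 CPM (SD, n = 4) after CNT-7, compared with 6.69 ± 4.02 CPM (SD, n = 4) for CNT-T (log2FC -3.87, adjusted p = 0.0042 from edgeR). Cd163, the haemoglobin scavenger receptor, and Spic, a transcription factor of iron-recycling macrophages, had log2 fold changes of -1.69 and -1.01. Clec4f, a lectin that marks Kupffer cells, had at most 0.13 CPM in any rat, and Timd4 was not analysed here. Folr2, the most counted of the list, had 623 ± 94.2 and 596 ± 31.6 CPM (log2FC 0.065, SE 0.11). Without CNT-7 rat 10, 2 genes were lower and 1, Marco, a scavenger receptor of macrophages, was higher. Without CNT-7 rat 3 or 5 or without CNT-T rat 12 or 13, only 2 genes of the list passed.

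The genes most like Id3 over the 8 rats, by the mean absolute difference of centred log2 CPM among 10140 named genes with at least 1 CPM, were Crispld2 (0.81), Dmwd (0.89), Dmpk (0.97), Nedd4 (1.06) and Cxadr (1.06). These distances are on the log2 scale, and the 5 genes had log2 fold changes between -4.64 and -3.16. For Id1 the closest genes were Gpt2 (0.21), Col4a3 (0.23), Gng10 (0.23), Grik3 (0.24) and Mis18a (0.24), with log2 fold changes between -0.69 and -0.39. The likeness is a description over 8 rats in 2 groups, so genes with a similar difference between the groups come out as close.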

How the data were processed

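RNA of sorted macrophages was measured in 4 rats with CNT-7 and 4 with CNT-T, and the labels gave the group and number of each rat. With the ARMOR workflow the authors checked reads with FastQC, quantified them with Salmon (version not given in the sources used here) against Ensembl rat cDNA (Rnor_6.0), imported them with tximeta and deposited estimated counts per gene. The deposited values were whole numbers, so rounding changed none, and 0 columns were left out. Estimated counts can divide reads between similar transcripts.

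Counts were tested with edgeR 4.0.16 (quasi-likelihood test, TMM, filterByExpr at its minimum count 10 and minimum total 15) in R 4.3.3, with Benjamini-Hochberg adjustment over all 12124 genes and a threshold of 0.10, as in the study. The SE was computed as log2FC over the square root of F. No p-value is given for the 10 members. The members and lists were chosen with earlier results of these data known. Named besides the members were, per list, at most 3 genes higher and 3 lower that passed, did not overlap and had at least 1 CPM on average, and the most counted gene. Others are stated by count or as examples chosen after their values were seen (Acvr1, Smad5, Bmp5, Nbl1, Hamp, Atoh8, Tcf3, Tcf12, Tal1, Spic, Clec4f and Marco). Likeness was measured on log2 CPM (prior count 2). The alternatives were DESeq2 1.42.0, upper-quartile normalization, 2 other filters, 2 stricter thresholds, a covariate for low or high rat numbers, and each rat left out. The scripts were tested on simulated counts. Of the listed symbols, Hfe2, Ep300, Timd4, Pecam1, Cd79a and Klrb1a were not matched and were not analysed here. Promoter windows were from RefSeq.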

Additional observations from a re-analysis of the deposited data

Results flagged for a closer look

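Of 69 groups of 4 rats examined for the genes named by the rules, 6 held a rat far from the others by Dixon's ratio of gap to range, and chance gives 3.45 (about 1 in 20). For Bmpr2, CNT-7 rat 10 had 42.9 CPM (ratio 0.841), and the remaining rats of that group had 36.4 to 37.4 CPM. The same rat stood above its group for Fkbp1a, with 267 CPM against 161 to 175 CPM (ratio 0.865), and for Tcf4 (ratio 0.943), with 32.2 CPM against 20.5 to 21.1 CPM. For Tob1, CNT-7 rat 5 had 34.4 CPM (ratio 0.923) against 20.7 to 21.7 CPM. For Cd5l, CNT-T rat 2 had 12.7 CPM (ratio 0.939) against 4.40 to 4.91 CPM. For Bmpr1a the ratio of 1 in CNT-T rat 13 comes from 2 counts, below the smallest level that can be shown.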

How the results depend on the processing

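No paired analysis was possible because no rat number in the labels occurs in both groups. Asking in addition for a 2-fold difference left 1006 of the 3383 genes, 9 of the 26 pathway genes outside the members (4 higher and 5 lower), and 2 of the 6 members that passed, since most of these differences are smaller than 2-fold. Under the other alternatives run, these counts and that of the Kupffer cell genes stayed within 1.5 times their value. With each rat left out in turn they were between 2578 and 3515 genes, 23 and 26 pathway genes, 2 and 3 Kupffer cell genes, and 5 and 6 members. For the 34 members and named genes, 422 of 439 values under the alternatives kept their direction and their side of the threshold. The direction changed in 5 values near 0, of genes that did not pass: Acvr2a without CNT-7 rat 10 (-0.011), Yy1 without CNT-7 rat 11 (0.0069), CNT-T rat 1 (0.014) or CNT-T rat 2 (0.0024), and Elk4 without CNT-T rat 12 (0.012). With each rat left out, Acvr2a ran from -0.011 to 0.14, Yy1 from -0.080 to 0.014 and Elk4 from -0.096 to 0.012. A member or named gene passed in addition in 3 values (Id1 with DESeq2 and without CNT-7 rat 10, and Klf10 without CNT-7 rat 5), and 9 no longer passed, 8 of them of Smad1 and 1 of Eng. The normalization moved the median of all genes by less than 0.01 on the log2 scale. Id3, Sost, Atoh8 and Hamp rest on few counts per rat, and Bmpr1a, Id4, Gdf2 and Bmp10 could not be seen below about 0.11 CPM.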
